A study of Mus musculus with 8 samples.

Results

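The pre-B cell receptor genes described here are 10 of the 21859 gene IDs in the count table: Vpreb1, Vpreb3 and Igll1, the receptor subunits Cd79a and Cd79b, the kinases Lyn, Syk and Btk, the adaptor Blnk and the phospholipase Plcg2. They were chosen by name from the known parts of the receptor and its first signalling steps, and each Ensembl ID was matched to its symbol in GENCODE M21. All 10 were detected in all 8 samples, with between 1570 and 18581 counts per gene and sample, and all 10 passed the filter on low counts. The samples are RNA sequencing libraries of PER-M60, a line of mouse leukaemia cells. The groups are 4 cultures labelled as controls and kept in control media, and 4 cultures kept in media conditioned by osteoclasts, the cells that resorb bone. All comparisons come from this 1 line, and how the line was made, the source of the osteoclasts and the time in the media are not given in the sources used here. The design text calls the samples cultures, and nothing in the labels says whether they were begun separately, so p-values measure only the spread between these samples.

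The pre-B cell receptor forms in precursor B cells when a newly made immunoglobulin mu heavy chain pairs with a surrogate light chain, built from a VpreB protein and lambda 5 (the product of Igll1), and joins the signalling pair Cd79a and Cd79b. Src family kinases such as Lyn, and Syk, act on the tails of Cd79a and Cd79b. Blnk then brings Btk and Plcg2 together, which leads to calcium release and protein kinase C activity. This signalling drives a burst of division and, through Blnk and Btk, the exit from it, and B cell precursor leukaemias can depend on it or lack it.

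Vpreb1 and Igll1 lie next to each other on chromosome 16 of mm10 (GRCm38), on the same strand, at chr16:16868403-16870843 and chr16:16860671-16863985, with 4417 bases and 0 listed genes between them. Vpreb2, a near copy of Vpreb1 that is no member of the set, lies 1109584 bases from Vpreb1 at chr16:17980428-17981273. The 250 bases before the RefSeq start sites (GRCm38.p6) of these genes are shown because Vpreb1 and Vpreb2 on one side and Igll1 on the other differed in call below, and that of Blnk because Blnk had the largest fold change of the 10. They lie at chr16:16869256-16869505 on the minus strand for Vpreb1, chr16:17980315-17980564 on the plus strand for Vpreb2, chr16:16863986-16864235 on the minus strand for Igll1 and chr19:40994222-40994471 on the minus strand for Blnk. Each reads 5′ to 3′ toward the start site, and capitals mark the motifs searched on both strands: CAGGTG, the E-box bound by E2A, CCCNNGGG, a core of EBF1 sites, and TGGGAA, a core of Ikaros sites.
Vpreb1: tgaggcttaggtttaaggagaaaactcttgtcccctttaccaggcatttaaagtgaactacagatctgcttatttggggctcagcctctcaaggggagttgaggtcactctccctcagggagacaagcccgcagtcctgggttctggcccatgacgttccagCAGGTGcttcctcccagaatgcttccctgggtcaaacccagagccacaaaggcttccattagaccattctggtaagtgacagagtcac
Vpreb2: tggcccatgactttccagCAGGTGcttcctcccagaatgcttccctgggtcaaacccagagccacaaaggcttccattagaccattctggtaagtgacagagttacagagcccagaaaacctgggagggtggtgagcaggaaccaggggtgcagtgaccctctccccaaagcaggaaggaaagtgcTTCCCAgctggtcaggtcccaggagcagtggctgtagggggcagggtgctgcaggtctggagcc
Igll1: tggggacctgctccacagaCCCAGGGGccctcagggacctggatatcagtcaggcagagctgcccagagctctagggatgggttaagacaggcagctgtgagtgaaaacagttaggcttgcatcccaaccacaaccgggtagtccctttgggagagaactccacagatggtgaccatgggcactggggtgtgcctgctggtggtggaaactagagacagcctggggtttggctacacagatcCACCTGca
Blnk: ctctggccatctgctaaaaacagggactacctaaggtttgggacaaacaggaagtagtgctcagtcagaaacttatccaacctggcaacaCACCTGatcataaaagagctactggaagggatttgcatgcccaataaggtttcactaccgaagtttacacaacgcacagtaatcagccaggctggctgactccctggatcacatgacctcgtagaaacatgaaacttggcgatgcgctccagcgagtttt

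The last 106 bases before the Vpreb1 start aligned with bases -250 to -145 before the Vpreb2 start, with 104 of 106 aligned columns identical (98.1%), so the shared stretch holds the E-box of both genes. The best local alignment of the Vpreb1 and Igll1 windows covered only 24 columns. The E-box lay at bases -88 to -83 of Vpreb1, -232 to -227 of Vpreb2, -8 to -3 of Igll1 and -160 to -155 of Blnk. The windows of Vpreb1 and Blnk lie inside the GENCODE spans of these genes, and that of Vpreb2 does so in part. These distances therefore rest on the RefSeq start sites used. The RefSeq table held a start site for 8 of the 10 genes, and Cd79b and Lyn had no entry. An E-box was found in the windows of 6 of these 8 genes (Vpreb1, Igll1, Cd79a, Blnk, Syk and Plcg2), and 17.2% of all 32851 windows of this length hold one. The EBF1 core was found in 1, Igll1, at bases -231 to -224 (11.8% of all windows), and the Ikaros core in 2, Btk and Plcg2 (21.6% of all windows). These are matches of letters, and binding was not measured.

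The libraries held 15391754 to 21637966 counts in genes, so that 3 counts, taken as the detection floor, stand for 0.139 to 0.195 CPM (counts relative to the size of the library, scaled between libraries for normalised CPM), and such floors cover counting error only. Media separated the samples on the first principal component (41.9% of the variance), while control replicate 2 and osteoclast-conditioned replicate 4 stood at opposite ends of the second (14%). Markers of the labelled cell type were those of B cell precursors: Pax5 stood at 1153 to 1259 normalised CPM in control media and 1311 to 1320 in conditioned media, and Ebf1 at 676 to 699 and 675 to 718. The summed level of the 13 pro-B and pre-B markers was 4346 to 4464 in control and 4495 to 4597 in conditioned media. Rag1 and Rag2 were at 0 counts in all samples, and both lie entirely within the span of another listed gene. Of 15 macrophage and osteoclast markers, 12 had under 10 counts in every sample and 5 of them were at 0 (Ocstamp, Dcstamp, Itgam, Cd14 and C1qa). Of the span of Itgam, 99.9% lies within another listed gene, and the part of the counting in its 0 was not tested. The summed level of the 15 markers was 40.6 to 44.1 normalised CPM in control and 42.8 to 49.8 in conditioned media. Acp5 was the largest part at a mean of 23.7. Among the 3 tested, 1, the lysozyme gene Lyz2, was called higher (3.89 to 4.86 against 4.99 to 6.89). The 6 T cell markers summed to 1.24 to 2.77 and 1.42 to 2.57, and the 4 plasma cell markers to 25.2 to 26.8 and 20.2 to 20.9. Of the plasma cell markers, Sdc1 was called lower (log2 fold change -0.39, edgeR adjusted p = 2.94e-06). The 5 erythroid markers summed to 8.65 to 12.2 and 11.3 to 12.8, and the 1 tested, Hbb-bt, was called higher (0.28, edgeR adjusted p = 0.0272). The mature B cell markers summed to at most 12.1 in either medium, the stromal and osteoblast markers to 10.9 to 12.8 and 9.22 to 11.5, and the granulocyte markers to at most 0.0592. The part of these shifts in the results below was not tested. In bulk RNA, fewer cells of a type and less RNA per cell cannot be told apart.

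Of the 10 genes, 6 were higher in osteoclast-conditioned media and 0 were lower by edgeR's quasi-likelihood test, at a Benjamini-Hochberg adjusted p under 0.05 over all 10729 genes tested. The 6 were Vpreb1, Vpreb3, Cd79a, Cd79b, Btk and Blnk, and the 4 not called were Igll1, Lyn, Syk and Plcg2. Among all genes tested, 30.5% were called in either direction, 15.7% as higher and 14.8% as lower. These shares are not matched for level, and the 10 genes lie at level percentiles 77.8 to 99 of the genes tested. The median log2 fold change of the 10 was 0.10, against -0.01 over all genes tested. Every change was small, from 0.10 to 0.29 on the log2 scale among those called. In 5 of the 10 (Vpreb1, Vpreb3, Cd79a, Btk and Blnk) the normalised CPM of the groups did not overlap, and 28.2% of all genes tested had no overlap. With control replicate 2 and conditioned replicate 4 both left out, an alternative added after the data were seen, the same 6 genes were called, with log2 fold changes from 0.10 (Btk) to 0.27 (Blnk), while 35% of all genes then tested were called.

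**Figure D1:**
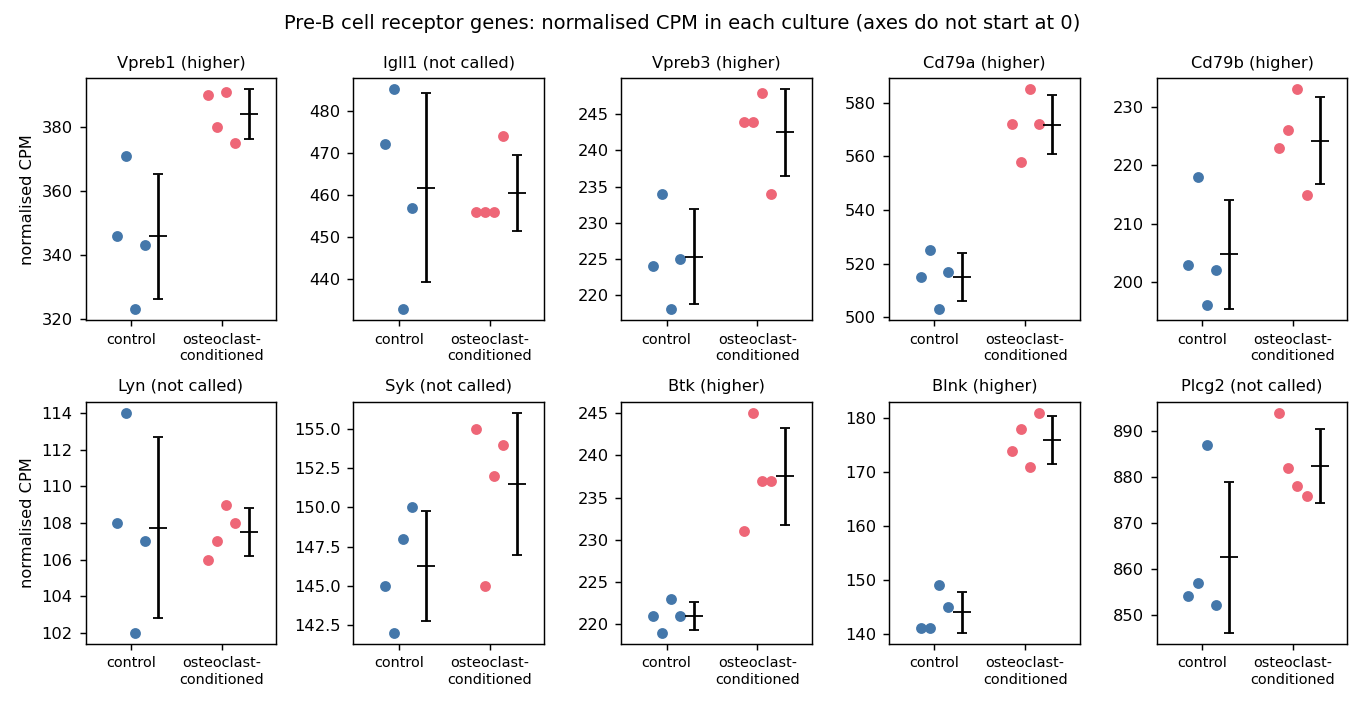
Normalised CPM (vertical axis, not starting at 0) of the 10 genes in each culture, control media in blue and osteoclast-conditioned media in red, with the mean and SD (n = 4) beside the points. All 4 conditioned cultures of Vpreb1, Cd79a, Btk and Blnk lie above all 4 controls, while the points of Igll1, Lyn, Syk and Plcg2 overlap.

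Of the 3 surrogate light chain genes, Vpreb1 and Vpreb3 were called and Igll1 was not. Vpreb1, which encodes the part of the surrogate light chain that stands in for the variable domain, measured 346, 371, 323 and 343 normalised CPM in control replicates 1 to 4 and 390, 380, 391 and 375 in the conditioned cultures. The lowest conditioned culture stood just above the highest control, replicate 2. Its mean rose from 346 ± 19.7 to 384 ± 7.77 (SD, n = 4), a log2 fold change of 0.15 (SE 0.03, 95% interval 0.09 to 0.22; edgeR adjusted p = 6.96e-04). Igll1, which encodes lambda 5, the constant-domain part of the surrogate light chain, measured 472, 485, 433 and 457 in controls and 456, 456, 456 and 474 in conditioned media. The 4 conditioned cultures all lay within the range of the controls. Means were 462 ± 22.3 and 460 ± 9, with a log2 fold change of -0.0049 (95% interval -0.07 to 0.06; edgeR adjusted p = 0.918), so a change of the size of the mean change of Vpreb1 lies outside this interval.

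The ratio of Igll1 to Vpreb1 counts, which does not depend on the scaling between libraries, was 1.36, 1.31, 1.34 and 1.33 in the control cultures. In conditioned media it was 1.17, 1.2, 1.16 and 1.26, below every control. The mean ratio was 1.34 ± 0.023 in control and 1.2 ± 0.0452 in conditioned media (SD, n = 4), a difference of -0.16 on the log2 scale. The two-sided exact permutation p was 0.0286, the smallest that 4 against 4 allows, and 0.0857 after adjustment over the 3 ratios tested, so the difference in ratio did not pass the threshold. With 4 against 4, 1 ratio that separates fully cannot pass it after this adjustment unless other ratios separate too, so this outcome was set by the design.

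Vpreb2, which encodes a second VpreB protein, measured 366, 381, 340 and 356 normalised CPM in controls and 415, 408, 412 and 399 in conditioned media. It rose from 361 ± 17.2 to 409 ± 7.02, a log2 fold change of 0.18 (95% interval 0.12 to 0.24; edgeR adjusted p = 2.71e-05). The protein-coding transcripts of Vpreb1 (766 bases) and Vpreb2 (759 bases) were 96.5% identical, with 27 of 766 aligned columns that differ, and 14.5% of the 100-base windows of Vpreb1 were found unchanged in Vpreb2. How reads that fit both were counted is not given in the sources used here, so the separate counts of Vpreb1 and Vpreb2 are uncertain. The ratio of Vpreb2 to Vpreb1 was 1.04 ± 0.0137 in control and 1.06 ± 0.00862 in conditioned media, given without a test, and its ranges overlapped. Of the span of Vpreb1, 4.42% also overlaps Top3b on the opposite strand, and Top3b had a log2 fold change of 0.06 (edgeR adjusted p = 0.147).

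Vpreb3, which encodes a VpreB-related protein that binds newly made immunoglobulin chains inside the cell, lies at chr10:75943057-75949657. It measured 224, 234, 218 and 225 normalised CPM in controls and 244, 244, 248 and 234 in conditioned media. Conditioned replicate 4 and control replicate 2 met at 234 after rounding, and the other conditioned cultures stood above all controls. The mean rose from 225 ± 6.75 to 243 ± 5.88, a log2 fold change of 0.10 (SE 0.03, 95% interval 0.05 to 0.16; edgeR adjusted p = 0.00566). The ratio of Igll1 to Vpreb3, chosen after the data were seen and not tested, was 2.05 ± 0.0498 in control and 1.90 ± 0.0833 in conditioned media, with overlapping ranges.

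Cd79a (chr7:24897381-24902197), which encodes the Ig-alpha signalling chain, measured 515, 525, 503 and 517 normalised CPM in controls and 572, 558, 585 and 572 in conditioned media. All conditioned cultures of Cd79a stood above all controls. Its mean rose from 515 ± 9.28 to 572 ± 11.2, a log2 fold change of 0.15 (SE 0.03, 95% interval 0.10 to 0.20; edgeR adjusted p = 3.77e-05). Cd79b (chr11:106311341-106314762), which encodes its partner Ig-beta, measured 203, 218, 196 and 202 in controls and 223, 226, 233 and 215 in conditioned media. The groups of Cd79b overlapped through control replicate 2 and conditioned replicate 4. Its mean rose from 205 ± 9.24 to 224 ± 7.32, a log2 fold change of 0.13 (SE 0.03, 95% interval 0.06 to 0.19; edgeR adjusted p = 0.0026). The ratio of Cd79a to Cd79b was 2.52 ± 0.0723 in control and 2.55 ± 0.0831 in conditioned media, a log2 difference of 0.02 (two-sided exact permutation p = 0.543, also after adjustment over 3 ratios).

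**Figure D2:**
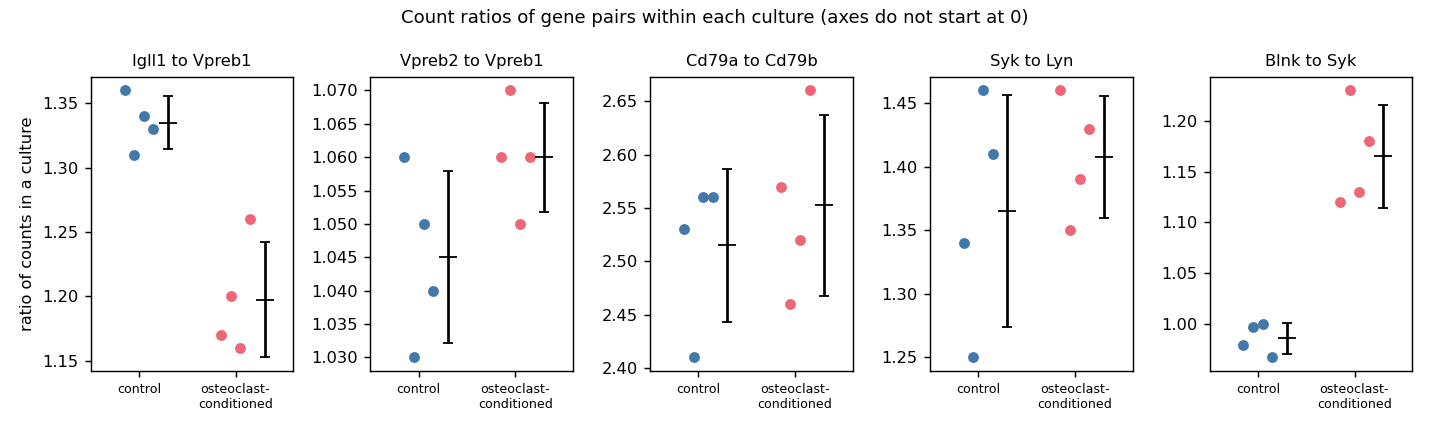
Ratio of counts of 2 genes within each culture (vertical axis, not starting at 0), control media in blue and osteoclast-conditioned media in red, with the mean and SD (n = 4). The Igll1 to Vpreb1 ratio is 1.31 to 1.36 in controls and 1.16 to 1.26 in conditioned media, the Blnk to Syk ratio lies higher in all conditioned cultures, and the other 3 ratios overlap.

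Of the 3 kinases, only Btk was called. Lyn (chr4:3678115-3813122), the Src family kinase that phosphorylates the Cd79 tails, measured 108, 114, 102 and 107 normalised CPM in controls and 106, 107, 109 and 108 in conditioned media. All conditioned cultures lay within the control range, and the log2 fold change was 7.0e-04 (95% interval -0.07 to 0.07; edgeR adjusted p = 0.989). Syk (chr13:52583173-52648792), which docks on the phosphorylated tails, measured 145, 142, 148 and 150 in controls and 155, 145, 152 and 154 in conditioned media. Conditioned replicate 2 of Syk lay among the controls, and the log2 fold change was 0.05 (95% interval -0.01 to 0.12; edgeR adjusted p = 0.213). Btk (chrX:134542336-134583570), the Tec family kinase that activates Plcg2, measured 221, 219, 223 and 221 in controls and 231, 245, 237 and 237 in conditioned media. The controls of Btk lay close together and below all conditioned cultures. Its mean rose from 221 ± 1.4 to 238 ± 5.8, a log2 fold change of 0.10 (SE 0.03, 95% interval 0.05 to 0.16; edgeR adjusted p = 0.00361). The ratio of Syk to Lyn was 1.36 ± 0.0919 in control and 1.41 ± 0.0459 in conditioned media, a log2 difference of 0.05 (two-sided exact permutation p = 0.486, 0.543 after adjustment over 3 ratios).

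Blnk (chr19:40928927-40994535), the adaptor that links Syk to Btk and Plcg2, had the largest log2 fold change of the 10. It measured 141, 141, 149 and 145 normalised CPM in controls and 174, 178, 171 and 181 in conditioned media. The gap between the groups was wider than the spread within either. Its mean rose from 144 ± 3.47 to 176 ± 4.41, a log2 fold change of 0.29 (SE 0.03, 95% interval 0.23 to 0.35; edgeR adjusted p = 8.85e-09), or 22.1% more. Plcg2 (chr8:117498291-117635142), the phospholipase C that Blnk and Btk bring into action, measured 854, 857, 887 and 852 in controls and 894, 882, 878 and 876 in conditioned media. Control replicate 3 of Plcg2 stood among the conditioned cultures. Its log2 fold change was 0.03 (95% interval -0.02 to 0.08; edgeR adjusted p = 0.342), so the interval lies below the fold change of Blnk. The ratio of Blnk to Syk was 0.986 ± 0.0156 in control and 1.16 ± 0.05 in conditioned media, and that of Blnk to Plcg2 0.167 ± 0.00259 and 0.199 ± 0.0059. Both ratios, added after the data were seen and given without a test, did not overlap between media.

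Close relatives of the members were measured too. Plcg1, the phospholipase more usual in T cells, stood at 23.3 normalised CPM in control and 23.0 in conditioned media, with a log2 fold change of -0.02 (95% interval -0.14 to 0.09; edgeR adjusted p = 0.807), and 60.8% of its span overlaps Zhx3. Blk, a Src family kinase of B cells, measured 103, 100, 104 and 101 in controls and 88.5, 98.4, 92.5 and 102 in conditioned media. Only conditioned replicate 4 of Blk lay within the control range, and the log2 fold change was -0.10 (95% interval -0.17 to -0.02), which missed the threshold (edgeR adjusted p = 0.0531). Without conditioned replicate 4 it passed, at -0.13 (edgeR adjusted p = 0.00881), and without control replicate 2 at -0.11 (edgeR adjusted p = 0.0327). Blk was called lower under 8 of its 20 alternatives and not called under the other 12. The 6 immunoglobulin constant genes looked for, Ighm among them, had no row in the table used here, so they were not analysed.

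**Figure D3:**
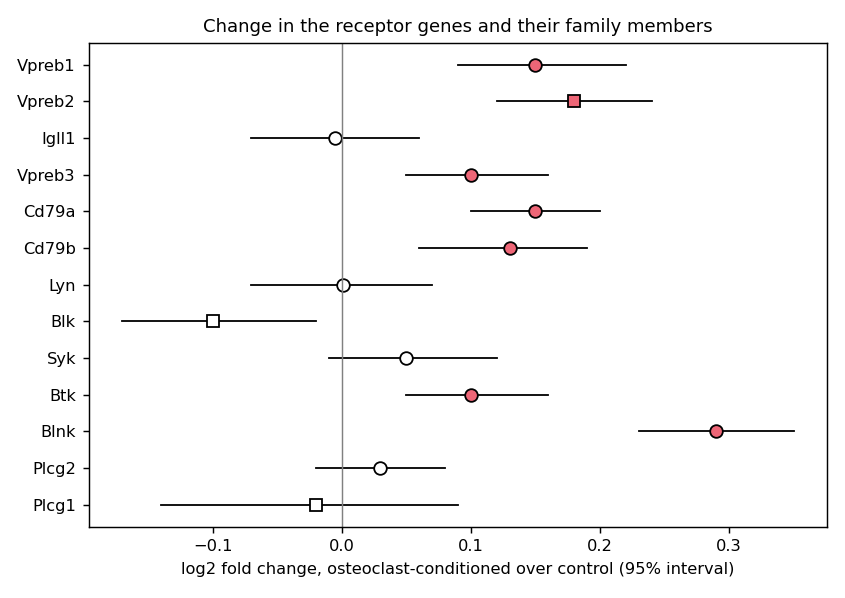
Log2 fold change, osteoclast-conditioned over control media (horizontal axis), with 95% intervals, for the 10 genes (circles) and for Vpreb2, Blk and Plcg1 (squares). Filled marks passed the test. Blnk lies at 0.29, the other filled marks lie between 0.10 and 0.18, and Igll1 and Lyn lie at about 0.

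Per kilobase of exon (the union of annotated exons), the levels in control media ran from Cd79a (354 normalised CPM per kb) through Vpreb1 (288), Vpreb3 (262), Igll1 (213), Plcg2 (201), Cd79b (143), Btk (70.2), Lyn (26.4) and Blnk (24.1) to Syk (15.6). The ranges of Vpreb1 and Vpreb3 overlapped, as did those of Igll1 and Plcg2, and all other neighbours in this order were apart. In conditioned media the order was the same except that Blnk, at 29.4 per kb, stood above Lyn, at 26.4. The order rests on the length used. With the longest transcript of any kind, Vpreb1 led in control media at 447 per kb, followed by Cd79a at 354, with Igll1 at 214, and the ranges of Blnk (31.8) and Lyn (31.0) overlapped. With the longest protein-coding transcript, a length chosen after the data were seen, Igll1 led in control media at 531 per kb, followed by Vpreb1 at 451, and Blnk (68.7) stood above Lyn (31.0) in control media too.

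The pattern of each surrogate light chain gene over the 8 samples was compared with that of 9031 other genes, by the root mean square distance of centred log2 CPM, as a description. Nearest to Vpreb1 were Vpreb2 (distance 0.019) and Fbxo46 (0.021), which encodes an F-box protein, and Cd79b was the nearest member, at rank 9. Nearest to Vpreb3 were Rapgef6 (0.013), an exchange factor for Rap GTPases, and Ube2j1 (0.014), a ubiquitin-conjugating enzyme of the endoplasmic reticulum. Nearest to Igll1 were Relch (0.015) and the tetraspanin gene Tspan5 (0.020), with Lyn at rank 6 and Vpreb1 only at rank 4228. The neighbours of Vpreb1 and Vpreb3 were all called higher, while Relch and Tspan5 had log2 fold changes of -0.0021 and 4.3e-04 (edgeR adjusted p = 0.98 and 0.995). The distance includes the difference between media, so near genes have like fold changes by choice, and this is no separate result. All distances share the same 8 libraries and their scaling.

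Beyond the 10 genes, 113 genes of 7 lists of the pathway were tested, and 41 were higher and 12 lower in conditioned media, or 46.9% called against 30.5% of all genes. Their median log2 fold change was 0.04. The share over all genes is not matched for level, and the part of level in this comparison was not tested. Without conditioned replicate 3 the 12 became 7. Of 18 further genes of the lists that were not tested, 6 had 0 counts (Bmx, and Lcp2, Sla, Irf8, Rag1 and Rag2, of which the last 5 lie entirely within another listed gene, where the part of the counting in these values of 0 was not tested), 6 had too few counts to be tested and 6 were not in the table used here.

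Among 9 other Src, Syk and Tec family kinases and Csk, 2 were called higher and 0 lower, with a median log2 fold change of 0.03. The 0 became 1 without control replicate 2 or conditioned replicate 4 or both, and with total counts or upper quartile scaling. It also became 1 with no filter, with the replicate block and among genes overlapping no other listed gene. Fyn rose from 146 to 152 normalised CPM in controls to 165 to 171 in conditioned media (0.17, edgeR adjusted p = 2.70e-05). Zap70, the Syk relative of T cells, rose by 0.19 (edgeR adjusted p = 0.0275), a call that was lost with DESeq2 (adjusted p = 0.0849) and without control replicate 1 or 3 or conditioned replicate 1 or 3 (edgeR adjusted p = 0.06, 0.0538, 0.104 and 0.12). Of 22 adaptors and coreceptors, 7 were higher and 3 lower (median 0.03), and the 3 became 1 without conditioned replicate 2 or 3 or with DESeq2. The docking protein gene Gab2 rose by 0.37 (edgeR adjusted p = 8.28e-09), Vav2 by 0.29 (edgeR adjusted p = 2.75e-07) and the ubiquitin ligase gene Cbl by 0.21 (edgeR adjusted p = 7.83e-05).

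Of 18 negative regulators, 6 were higher and 3 lower, with a median of -0.02. Cd22, an inhibitory receptor that binds sialic acid, fell from 131 to 140 normalised CPM in controls to 99.2 to 103 in conditioned media, a log2 fold change of -0.44 (edgeR adjusted p = 6.50e-12). Cd72, another inhibitory B cell receptor, fell by 0.25 (edgeR adjusted p = 2.21e-05), and 19.6% of its span overlaps Tesk1. The phosphatase gene Ptpn22 rose by 0.22 (edgeR adjusted p = 6.70e-04), so genes of this list moved in both directions.

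In the calcium, protein kinase C, NF-kB and ERK branch, which acts after Plcg2, 10 of 28 genes were higher and 1 was lower (median 0.05), and the 1 became 0 without control replicate 1, conditioned replicate 2 or conditioned replicate 3 and among genes overlapping no other listed gene, and 2 with total counts or upper quartile scaling. Braf rose by 0.30 (edgeR adjusted p = 1.51e-07), Prkcb, a protein kinase C, by 0.22 (edgeR adjusted p = 1.01e-07) and Orai1, a calcium channel subunit of the plasma membrane, by 0.22 (edgeR adjusted p = 2.41e-04). In the PI3K, AKT and FOXO branch, 9 of 15 were higher and 2 lower (median 0.12), and the 2 became 1 without conditioned replicate 1 or with counts thinned to the smallest total. Foxo1, a transcription factor that AKT keeps out of the nucleus, rose from 148 to 152 normalised CPM in controls to 194 to 204 in conditioned media, a log2 fold change of 0.40 (edgeR adjusted p = 3.26e-12). Foxo3 rose by 0.18 (edgeR adjusted p = 1.96e-04), while Pik3r5, a regulatory subunit of PI3K gamma, fell by 0.24 (edgeR adjusted p = 0.00307).

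Of 20 transcription factors and target genes around the receptor, 6 were higher and 3 lower (median 0.07). Id3, an inhibitor of E proteins such as E2A, fell from 17.7 to 19.4 normalised CPM in controls to 12.6 to 14.4 in conditioned media, a log2 fold change of -0.48 (edgeR adjusted p = 1.72e-06). Irf4, a factor that acts as pre-B cells stop dividing and rearrange light chains, rose by 0.22 (edgeR adjusted p = 3.71e-06). Ccnd3, the cyclin D3 gene used in pre-B cell division, fell from 1575 to 1781 normalised CPM in controls to 1386 to 1492 in conditioned media, a log2 fold change of -0.21 (edgeR adjusted p = 7.88e-05).

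**Figure D4:**
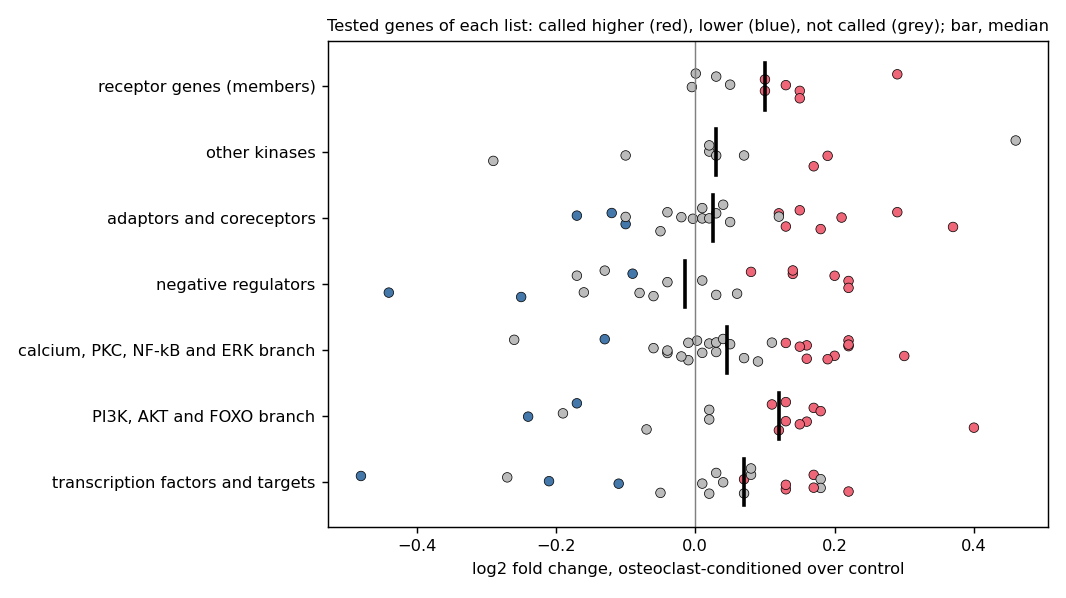
Log2 fold change, osteoclast-conditioned over control media (horizontal axis), of each tested gene of the 10 members and of 6 lists of the pathway, with red for called higher, blue for called lower, grey for not called and a bar for the median. The members range from -0.0049 to 0.29 with 0 blue points, and the PI3K, AKT and FOXO list has the highest median, 0.12.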

How the data were processed

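RNA of 4 control and 4 osteoclast-conditioned PER-M60 cultures was made into SureSelect HS2 libraries, per the labels' protocols. The authors deposited 1 table of unscaled read counts for each Ensembl ID and sample, aligned with STAR 2.7.5a and counted with featureCounts 2.0.1 on mm10, per the submitters' processing notes. Use of strand, of molecular barcodes and of multi-mapped reads is not given in the sources used here. Groups and replicate numbers came from sample titles. The 10 genes, the lists, the named-gene rule and the tests were chosen with earlier results of these data known.

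Symbols, positions and exons came from GENCODE M21 (GRCm38): 21817 IDs matched, 42 did not, and 6700 were at 0 in all samples. Genes passing filterByExpr (10729) were scaled by TMM and tested with edgeR 4.0.16 (R 4.3.3; robust glmQLFit, glmQLFTest, medium as the term), with Benjamini-Hochberg adjustment and a threshold of 0.05. SE is the absolute log2 fold change over the square root of F. Alternatives used DESeq2 1.42.0, limma-voom 3.58.1, other scalings and filters, thinning and left-out samples. Named genes were the 10 members, Vpreb2, Ighm, Plcg1 and Blk, up to 3 called genes with the largest absolute change per list, and the 2 nearest patterns of Vpreb1, Vpreb3 and Igll1 among genes of at least 5 CPM. Markers, overlapping genes and Top3b are named besides. Ratios were tested by exact permutation.

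On simulated counts (10666 genes) the test found 42% of the genes given a 1.1-fold change, 68% of those given 1.2-fold, 95.8% of those given 1.5-fold and 94% of those given 2-fold. False calls made up 7.5% of all calls. The changed genes, 48 to 50 for each size of change, were drawn at random from genes of all levels. Chi-square per degree of freedom between samples was 1.39 to 5.27 within groups and 7.85 to 13.2 between them, so no 2 samples were counted as 1. Promoter windows and motifs used Python 3.11.15 with biopython 1.88 and RefSeq tables.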

Additional observations from a re-analysis of the deposited data

Results flagged for a closer look

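A sample was singled out where its gap to the nearest of the other 3 in its group divided by the group's range was over Dixon's 95% critical value. This was so for 4 of the 76 groups of 4 values compared (each named gene and each tested ratio in each medium), and chance gives about 3.8. Igll1 measured 474 normalised CPM in conditioned replicate 4 against 456 to 456 in the other conditioned cultures. Plcg2 measured 887 in control replicate 3 against 852 to 857 in the other controls. Id3, the inhibitor of E proteins, measured 17.7 in control replicate 3 against 19.3 to 19.4. Rapgef6, the gene nearest in pattern to Vpreb3, measured 216 in conditioned replicate 4 against 227 to 229.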

How the results depend on the processing

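Vpreb1, Vpreb3, Cd79a, Cd79b, Btk and Blnk were called higher under all their alternatives (19 for Vpreb1, which overlaps Top3b and so is not among genes overlapping no other listed gene, and 20 for each of the other 5), and Igll1, Lyn, Syk and Plcg2 under none. Log2 fold changes ranged over 0.12 to 0.20 for Vpreb1, 0.08 to 0.14 for Vpreb3, 0.13 to 0.16 for Cd79a, 0.11 to 0.18 for Cd79b, 0.08 to 0.12 for Btk and 0.27 to 0.30 for Blnk. Of 35 named genes, 27 kept direction and call under all alternatives run for them, 19 or 20 for each gene. With the replicate number as a block 6 of the 10 genes and 3446 of all genes were called. Same-numbered samples correlated by -0.051 to 0.143 (mean 0.037) and other pairs across media by -0.267 to 0.126 (mean -0.013). The labels do not say whether the numbers pair the samples, and so few correlations cannot settle it. Blk alone among named genes gained a call with the block (edgeR adjusted p = 0.047). The ratio of Igll1 to Vpreb1 differed by -0.16 with the block as well (exact sign-flip p = 0.375 adjusted over 3, where 4 pairs are too few to pass), and leaving out 1 culture gave -0.18 to -0.14.

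Signs turned only for genes and ratios near 0, and the cause was not tested. Igll1 was 0.01 without control replicate 2 and conditioned replicate 4 together and -0.03 to 0.02 without 1 culture. Lyn was -0.02 with total counts, -0.01 with the upper quartile, -0.0034 among genes overlapping no other, and -0.02 to 0.03 without 1 culture. Relch was 1.5e-04 at a mean of at least 50 counts, 0.01 thinned, 0.01 without both samples, and -0.02 to 0.02 without 1. Tspan5 was -0.02, -0.01 and -0.0037 under the settings named for Lyn, and -0.02 to 0.02 without 1. Plcg1 was -0.06 to 0.0025 and the Cd79a to Cd79b ratio -4.3e-04 to 0.04 without 1 culture. Genes of the pathway called lower numbered 12 with all samples, 7 to 14 without 1 culture (7 without conditioned replicate 3), 17 with total counts and 15 with the upper quartile. Fbxo46 was not called with DESeq2 (adjusted p = 0.0731) or without control replicate 3 or conditioned replicate 1 or 3. With total counts the median of all genes moved by -0.021 and 40.7% of calls were higher, against 51.6%.

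With 4 cultures a group, the test called 42% of simulated 1.1-fold changes, so changes of the size of those in Vpreb3 and Btk are near what this design can detect, and genes not called may differ by up to the bounds of their intervals.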
